A study of Mus musculus with 10 samples.

Results

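The CREB family factors, their CRTC coactivators and the salt-inducible kinases that hold the coactivators back were followed in cultured peritoneal macrophages with and without Gsα. The set was given by name and holds 10 genes: the factors Creb1, Atf1, Crem, Creb3 and Creb5, the coactivators Crtc1, Crtc2 and Crtc3, and the kinases Sik1 and Sik3. All 10 were found among the 53465 genes of the count table, and all 10 were among the 13203 genes with enough counts to be tested. Bulk RNA was sequenced from control cells (genotype CTR, 5 libraries) and from cells of the genotype Mac-GsαKO (called KO here, 5 libraries). Both genotypes came from mice aged 6 to 8 weeks, and the macrophages were kept in standard culture with no agent added to either. By its name the KO lacks Gsα, the product of Gnas, in macrophages. The labels used here give neither the altered allele nor the promoter that drives its deletion, and whether each library is from a separate mouse is not said. The spread given is therefore that between libraries, part of which may be technical, and in bulk RNA fewer cells of a type and less RNA per cell cannot be told apart.

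Gsα couples receptors to adenylyl cyclase, which makes cAMP. Cyclic AMP frees the catalytic subunits of protein kinase A, and these phosphorylate CREB1, ATF1 and CREM on a serine that binds the acetyltransferases CBP and p300. In a second arm, protein kinase A phosphorylates salt-inducible kinases, which then no longer phosphorylate the CRTC proteins, so that CRTCs leave their 14-3-3 anchors, enter the nucleus and bind CREB. Both arms act on proteins, which RNA counts do not measure. Several genes of the circuit are themselves targets of CREB in many cell types, among them Sik1, Per1, Nr4a1 and the short repressor form made from an internal promoter of Crem. In macrophages the pathway is known for damping inflammatory cytokines and for supporting Il10.

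Since CREB, ATF1 and CREM proteins bind the cAMP response element, the 250 bases before the start of each member were searched for its full letters, TGACGTCA, and for its core, TGACG or CGTCA, on both strands. A full element holds the core on both strands and so counts for both. RefSeq promoters (GRCm38.p6) were matched by symbol for 7 members, and for Crtc2, Sik1 and Crem none was matched. The full element stood in 1 of the 8 windows of these 7 members, the first of 2 starts of Creb5, against 1.55% of all 32851 windows in the table. The core stood in 3 of the 8, for Creb5, Atf1 and Sik3, against 17.8% of all windows. The whole window of the first Creb5 start is shown because it alone among the members holds the full element. It lies on the plus strand at chr6:53287053-53287302, and the capitals mark the element, whose first base is 45 bases before the start.

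Creb5: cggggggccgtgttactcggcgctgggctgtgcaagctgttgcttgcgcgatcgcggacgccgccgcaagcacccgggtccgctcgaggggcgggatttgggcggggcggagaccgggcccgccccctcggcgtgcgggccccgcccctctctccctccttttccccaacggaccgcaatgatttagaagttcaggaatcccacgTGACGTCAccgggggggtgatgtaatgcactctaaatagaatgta

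The other member windows with a core match, and those of the CREB target genes Dusp1 and Fos for comparison, are shown as 41-base stretches with the core or full element in capitals. Dusp1 and Fos were picked from target genes with a match. Of the 33 windows found for 23 of the CREB target genes listed below, 19 held the core and 2 the full element. The Atf1 core (chr15:100227751-100227791, plus strand) starts 90 bases before the start of the gene. One of the 3 Sik3 cores (chr9:46012745-46012785, plus strand) starts 57 bases before it. The full element of Dusp1 (chr17:26508593-26508633, minus strand) starts 143 bases before and 1 of the 2 cores of Fos (chr12:85473806-85473846, plus strand) starts 66 bases before.
Atf1: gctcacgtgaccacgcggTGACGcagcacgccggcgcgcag
Sik3: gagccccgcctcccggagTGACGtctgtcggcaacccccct
Dusp1: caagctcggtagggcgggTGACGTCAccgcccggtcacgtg
Fos: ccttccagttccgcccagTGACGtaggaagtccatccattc
A match is a run of letters and not a measured site. These windows are rich in G and C, with 77.6% for Atf1, 74% for Sik3 and 66.4% for Creb5. No match was found for Creb1, Creb3, Crtc1 or Crtc3 in their windows of 250 bases.

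The CTR libraries held 15664243 to 18028974 counts and the KO libraries 16877249 to 19235777. Gnas lay between 359 and 491 CPM (counts relative to library totals that were scaled by the TMM method) in CTR but only 37.0 to 43.5 in KO (-3.43 on the log2 scale, SE 0.11, adjusted p = 9.16e-09 by the edgeR quasi-likelihood test), with no overlap. CTR 4 and CTR 5 stood apart from the other 8 libraries: on the first principal component they lay at -34.7 and -34.7, and the other 3 CTR libraries between -18.5 and -6.85. On the second component CTR 4 alone lay apart, at -46.7, and CTR 5 at 9.46 was within the range of the others (-10.9 to 25.6). Mitochondrial genes held 1.39% to 1.97% of the counts in CTR libraries and 1.20% to 1.36% in KO libraries, with no overlap, and the part of this in the results was not tested. The 2861 tested genes of at least 10000 bases were also low in these 2 libraries, with a median deviation from the gene mean of -0.22 log2 units in CTR 4 and -0.18 in CTR 5, against 0.01 to 0.13 in the others. This matters here because 6 members have gene models over 10000 bases, Creb5 with 34911, Crem with 22587, Creb1 with 20697, Sik3 with 13135, Crtc1 with 12309 and Crtc3 with 10691, so results are also given without these 2 libraries and with a correction for gene length and GC content. Macrophage markers were abundant in both genotypes, with mean levels of Cd68 of 2929 (CTR) and 2828 CPM (KO) and of Adgre1 of 750 and 865. Of these markers Lyz2 fell and Csf1r and Itgam rose (adjusted p = 2.03e-05, 0.0235 and 0.0494 by edgeR). Their log2 fold changes (KO over CTR) were -1.52, 0.46 and 0.79. Of 20 other settings, Lyz2 was called in 20, Csf1r in 15 and Itgam in 9. The summed B cell markers stood at 3.24 to 11.6 CPM (CTR) and 12.2 to 19.5 CPM (KO), with 3 of the 6 genes tested and 0 called by edgeR (2 higher at an unadjusted p under 0.05), and their part in the results was not tested. Further, the 6 genes of the erythroid list had at most 10 counts in any library. Of the 6 neutrophil markers 3 were tested and all 3 were lower in value in KO, with a median log2 fold change of -0.56. S100a8 fell, from a mean of 19.1 to 13.0 CPM (adjusted p = 0.0443 by edgeR), and Mmp8 differed by -0.66 (adjusted p = 0.119), while Ly6g had 0 counts in all libraries. The neutrophil sum ran from 60.6 to 123 CPM over CTR and from 51.1 to 77.1 over KO, and its part in the results was not tested. Summed levels overlapped between genotypes for the T and NK, mast cell and eosinophil, dendritic, and mesothelial and fibroblast lists.

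None of the 10 genes passed the test between KO and CTR. At an adjusted p under 0.05 over all genes tested (edgeR quasi-likelihood test), 0 members were called higher and 0 lower in KO, where 3.94% of all tested genes were called (1.83% higher and 2.11% lower). At an unadjusted p under 0.05 there were 2, Creb5 on the higher and Creb3 on the lower side, a measure that 21.9% of all genes met. DESeq2 and limma voom each called 1 member, Creb5, as higher and 0 as lower, where over all genes they called 591 higher and 673 lower (DESeq2) and 1026 and 893 (voom). No member separated the genotypes, that is, in each the range of the 5 KO libraries overlapped that of the 5 CTR libraries, while 7.8% of all tested genes had no overlap (4.55% lower in KO). The median log2 fold change (KO over CTR) of the 10 was 0.02, beside -0.01 over all genes tested.

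**Figure D1:**
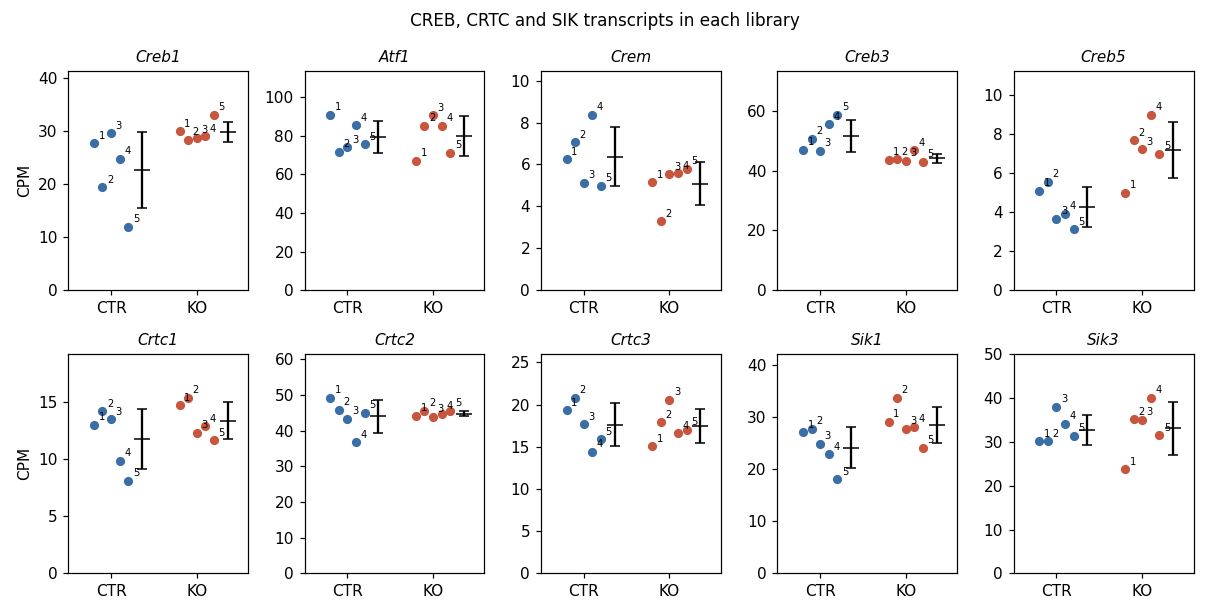
Level of each member in CPM (vertical axes, from 0) in the 5 CTR and 5 KO libraries; digits are replicate numbers, and black bars give mean ± SD. Creb5 is higher in 4 of 5 KO libraries than in any CTR library, Creb1 and Crtc1 spread widely in CTR, and Crtc2 is tight in KO (43.9 to 45.6 CPM).

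The members spanned about 2 orders of magnitude in level per length. In FPKM (counts scaled by gene length and library total, deposited by the authors), the mean over all 10 libraries was 16.8 for Atf1, 11.5 for Creb3, 6.47 for Crtc2, 5.84 for Sik1, 2.51 for Sik3, 1.64 for Crtc3, 1.27 for Creb1, 1.02 for Crtc1, 0.252 for Crem and 0.164 for Creb5. Atf1 stood above Creb3 in 10 of 10 libraries, though their ranges over libraries touched, and Creb3 above Crtc2 in 10 of 10 with no overlap. Crtc2 exceeded Sik1 in 8 of 10, Crtc3 exceeded Creb1 in 8 of 10, Creb1 exceeded Crtc1 in 8 of 10 and Crem exceeded Creb5 in 8 of 10, and the ranges of each of these neighbours overlapped. Among the 13203 tested genes Atf1 lay at the 83rd percentile of FPKM in CTR, Creb1 at the 25.4th, Crem at the 7.86th and Creb5 at the 2.64th. FPKM divides by the whole gene model, and the models of Creb1, Crem and Creb5 are long, so transcripts shorter than the model are understated.

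**Figure D2:**
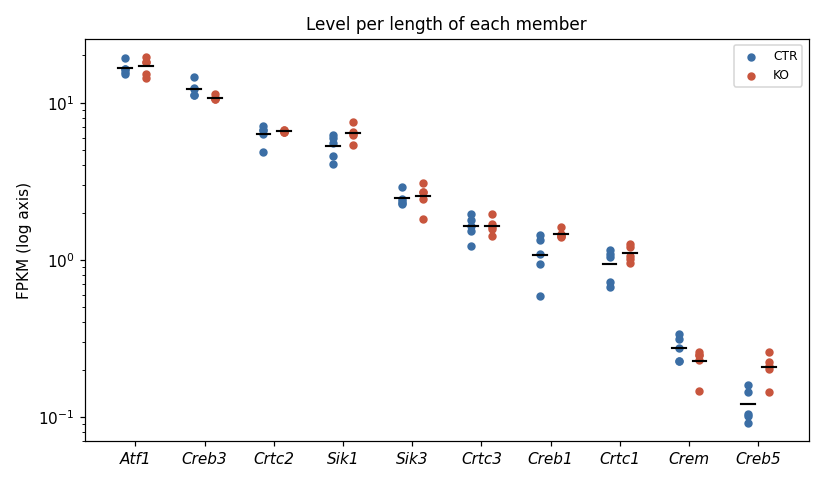
FPKM of each member on a log axis, ordered by the CTR mean, with 1 point per library and a bar at the mean of each genotype. The order of members is close to the same in both genotypes, from Atf1 (16.6 in CTR, 17.1 in KO) to Creb5 (0.121 and 0.208).

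Creb1 and its closest relatives are the factors that carry the serine phosphorylated by protein kinase A. Creb1 stood at 27.8, 19.4, 29.6, 24.8 and 12.0 CPM in CTR 1 to CTR 5. The levels in KO 1 to KO 5 were 30.0, 28.4, 28.8, 29.0 and 33.1 CPM. The KO libraries were close together and all above the CTR median, and the CTR libraries ran from CTR 5, the lowest of all, up to CTR 3, which lay within the KO range. The log2 fold change was 0.39 (SE 0.20, 95% interval -0.03 to 0.82, adjusted p = 0.262 by edgeR). Without CTR 5 it was 0.23, without CTR 4 and CTR 5 it was 0.22, and with the length and GC correction 0.33, none past the threshold. The SD of log2 CPM of Creb1 was 0.53 in CTR and 0.09 in KO, beside medians over tested genes with at least 1 CPM of 0.26 and 0.17.

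Atf1, which dimerises with CREB1 and is the most abundant member, had nearly equal means in both genotypes. It stood at 90.9, 71.6, 73.9, 85.4 and 75.5 CPM in CTR 1 to CTR 5. In KO 1 to KO 5 it stood at 66.9, 85.0, 90.6, 85.2 and 71.2 CPM, so that the groups overlapped over nearly their whole range. On the log2 scale the difference (KO minus CTR) was 0.01 (SE 0.11, adjusted p = 0.982 by edgeR), with a 95% interval from -0.23 to 0.24, or 0.854-fold to 1.18-fold. The table also counts a pseudogene of it, Atf1-ps, at 80 to 188 counts per library against 1154 to 1660 for Atf1, and reads may be assigned to either. The ratio of Atf1-ps to Atf1 counts was 0.112 ± 0.0307 in CTR and 0.0999 ± 0.0169 in KO (SD, n = 5 each).

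Crem encodes both activators and, from an internal start, the repressor ICER, which a gene-level count does not separate. It stood at 6.26, 7.07, 5.14, 8.38 and 4.99 CPM in CTR 1 to CTR 5. The levels in KO 1 to KO 5 were 5.16, 3.28, 5.54, 5.57 and 5.80 CPM. All 5 KO libraries lay below the CTR median, but 4 of them within the CTR range, and KO 2 was the lowest of all. The log2 fold change was -0.33 (SE 0.19, 95% interval -0.75 to 0.09, adjusted p = 0.351 by edgeR). It was -0.20 without KO 2, -0.21 without CTR 4, -0.28 without CTR 4 and CTR 5, and -0.47 with the length and GC correction. Counts of 64 to 124 per library left a counting error of 12.5% at the lowest.

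Within a library the balance of these 3 factors is free of scaling between libraries. The ratio of Creb1 to Atf1 counts was 0.285 ± 0.0867 in CTR and 0.381 ± 0.0697 in KO (SD, n = 5 each), between 0.159 and 0.401 against 0.318 and 0.465. The ratio of Creb1 to Crem counts was 3.66 ± 1.41 in CTR and 6.12 ± 1.46 in KO, and CTR 3 at 5.77 lay above 3 KO libraries, KO 3 at 5.19, KO 4 at 5.21 and KO 5 at 5.71. Both ratios overlapped between genotypes. The Creb1 to Atf1 ratio sets a model of 20697 bases against one of 4721. CTR 5, where long genes were low, gave its lowest value (0.159), and the part of gene length in it was not tested. Of the summed FPKM of the 3 genes, Atf1 held 92.5 ± 1.74% in CTR and 90.9 ± 1.54% in KO, Creb1 5.99 ± 1.73% and 7.88 ± 1.303%, and Crem 1.55 ± 0.317% and 1.23 ± 0.303%.

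Creb3 and Creb5 are more distant relatives. CREB3 is held in the membrane of the endoplasmic reticulum until it is cleaved, and CREB5 is related to ATF2 and not to the cAMP-responsive factors. Creb5 stood at 5.08, 5.55, 3.67, 3.92 and 3.12 CPM in CTR 1 to CTR 5. In KO 1 to KO 5 it stood at 4.98, 7.68, 7.23, 9.0 and 7.01 CPM. KO 2 to KO 5 lay above every CTR library, and KO 1 below CTR 1 and CTR 2. On the log2 scale the difference (KO minus CTR) was 0.75 (SE 0.20, 95% interval 0.32 to 1.18, unadjusted p = 0.00238, adjusted p = 0.0539 by edgeR), a fold of 1.68.

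For Creb5 the side of the threshold depended on the setting. It passed by the DESeq2 Wald test (adjusted p = 0.00901), by limma voom (0.0397), with library-size scaling in edgeR (0.0480), with a stricter filter on low counts (0.0497) and without CTR 2 (0.0446). It did not pass without CTR 4 and CTR 5 (log2 fold change 0.60, adjusted p = 0.0998 by edgeR) or with the length and GC correction (0.57, adjusted p = 0.0803). Creb5 is the member with the longest gene model and the fewest counts, 50 to 160 per library, where the counting error was 14.1% at the lowest. The exons of Creb5 overlap 164 bases of the small RNA gene Gm25818 on the same strand in GENCODE M21.

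Creb3 had the opposite sign. It stood at 47.0, 50.7, 46.6, 55.5 and 58.7 CPM in CTR 1 to CTR 5. The levels in KO 1 to KO 5 were 43.7, 43.8, 43.3, 46.8 and 43.0 CPM. The KO libraries lay below all CTR libraries except for KO 4, which stood just above CTR 3. The log2 fold change was -0.23 (SE 0.09, 95% interval -0.42 to -0.04, unadjusted p = 0.0216, adjusted p = 0.1496 by edgeR). The highest CTR libraries were CTR 4 and CTR 5, and without them it was -0.12 (adjusted p = 0.278). With the length and GC correction it was -0.23 (adjusted p = 0.0742). Exons of Creb3 overlap those of Tln1 by 360 bases and of Gba2 by 133 bases on the opposite strand in GENCODE M21, and the strand setting of the counting is not given in the sources used here.

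Since Creb5 and Creb3 differed with opposite signs, their ratio was taken within each library, a pair chosen after the values were seen and so given with no test. It was 0.108, 0.110, 0.0787, 0.0707 and 0.0531 in CTR 1 to CTR 5. In KO 1 to KO 5 it was 0.114, 0.175, 0.167, 0.193 and 0.163. Every KO library lay above every CTR library, KO 1 by a small margin over CTR 2. That margin rests on Creb5 counts of 86 in KO 1 and 95 in CTR 2. Since the pair joins a member higher in KO with a member lower in KO, the separation follows in part from the choice. The Creb5 model has 34911 bases and that of Creb3 4140. CTR 4 and CTR 5, where long genes were low, gave the lowest ratios. Without them the CTR range was 0.0787 to 0.110.

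**Figure D3:**
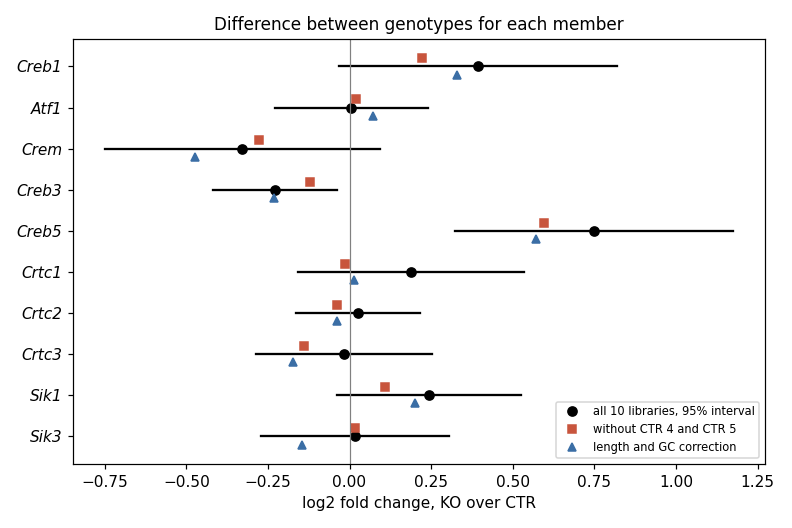
Log2 fold change (KO over CTR) of each member with its 95% interval from all 10 libraries (black), and the value without CTR 4 and CTR 5 (squares) and after correction for length and GC (triangles). Only the intervals of Creb5 (0.32 to 1.18) and Creb3 (-0.42 to -0.04) leave out 0 before adjustment for all genes tested.

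The CRTC coactivators bind the DNA-binding domain of CREB and carry strong activation domains, and their entry to the nucleus is the step that salt-inducible kinases control. Crtc2, the main form in many peripheral tissues, stood at 49.2, 45.8, 43.3, 36.8 and 44.9 CPM in CTR 1 to CTR 5. In KO 1 to KO 5 it stood at 44.2, 45.6, 43.9, 44.7 and 45.5 CPM. The KO values lay within the CTR range, in which CTR 4 was lowest. On the log2 scale the difference (KO minus CTR) was 0.03 (SE 0.09, adjusted p = 0.890 by edgeR), with a 95% interval from 0.892-fold to 1.16-fold. Of the members, Crtc2 had the smallest spread in KO, with an SD of log2 CPM of 0.02. Its counting error was 4.29% at its lowest count, 544 in CTR 4, so so small a spread is not taken as a trait of Crtc2.

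Crtc3, the form known from fat tissue and from macrophages, ran over CTR from 14.4 (CTR 4) to 20.8 CPM (CTR 2), and over KO from 15.1 (KO 1) to 20.6 CPM (KO 3). The log2 fold change was -0.02 (SE 0.12, 95% interval -0.29 to 0.25, adjusted p = 0.957 by edgeR). It was -0.14 without CTR 4 and CTR 5 and -0.17 with the length and GC correction, neither past the threshold. Crtc1, best known from neurons, stood at 13.0, 14.2, 13.5, 9.87 and 8.10 CPM in CTR 1 to CTR 5. The levels in KO 1 to KO 5 were 14.7, 15.4, 12.3, 12.9 and 11.7 CPM. CTR 4 and CTR 5 were the only libraries under 10 CPM. The log2 fold change of Crtc1 was 0.19 (SE 0.16, 95% interval -0.16 to 0.54, adjusted p = 0.524 by edgeR), and it was -0.02 without CTR 4 and CTR 5 and 0.01 with the length and GC correction.

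The make-up of the CRTC group was nearly the same in both genotypes. Of the summed FPKM of the 3 genes, Crtc2 held 71.2 ± 2.64% in CTR and 70.6 ± 1.53% in KO, Crtc3 18.2 ± 1.03% and 17.6 ± 1.85%, and Crtc1 10.5 ± 1.79% and 11.8 ± 1.33% (SD, n = 5 each). Each of these differences was smaller than the SD within CTR or KO.

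Sik1 and Sik3 encode kinases that phosphorylate CRTCs and class IIa histone deacetylases. Sik1, whose transcription CREB induces in many cells, stood at 27.1, 27.7, 24.8, 22.8 and 18.0 CPM in CTR 1 to CTR 5. In KO 1 to KO 5 it stood at 29.1, 33.7, 27.7, 28.1 and 24.1 CPM. KO 1, KO 2 and KO 4 lay above all CTR libraries, KO 3 was level with CTR 2, CTR 5 was the lowest and KO 5 stood inside the CTR range. On the log2 scale the difference (KO minus CTR) was 0.24 (SE 0.13, 95% interval -0.04 to 0.52, adjusted p = 0.296 by edgeR). It was 0.16 without CTR 5, 0.11 without CTR 4 and CTR 5, 0.20 with the length and GC correction, and 0.18 without KO 2, the highest library.

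Sik3 stood at 30.1, 30.1, 38.0, 34.1 and 31.4 CPM in CTR 1 to CTR 5. The levels in KO 1 to KO 5 were 23.8, 35.2, 35.1, 40.1 and 31.5 CPM. The KO libraries held both the lowest and the highest value, KO 1 and KO 4. The log2 fold change was 0.02 (SE 0.13, 95% interval -0.27 to 0.30, adjusted p = 0.958 by edgeR). It was 0.02 without CTR 4 and CTR 5 and -0.14 with the length and GC correction. Sik1 held 67.9 ± 4.51% of the summed FPKM of the pair in CTR and 71.5 ± 4.37% in KO, a difference smaller than either SD. This share depends on the model lengths, 4511 bases for Sik1 and 13135 for Sik3. In counts the ratio of Sik1 to Sik3 was 0.743 ± 0.156 in CTR and 0.887 ± 0.211 in KO (SD, n = 5 each), with overlap.

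The bound on a missed change differed by member. In the fit to all 10 libraries, with no correction, the 95% intervals of Crtc2, Atf1, Crtc3 and Sik3 stayed between 0.821-fold and 1.23-fold. For Crtc1 and Sik1 the upper bounds were 1.45-fold and 1.44-fold, for Creb1 1.77-fold and for Creb5 2.26-fold, and the lower bound for Crem was 0.594-fold. With the length and GC correction Crtc3 was at -0.17 log2 units (SE 0.12) and Sik3 at -0.14 (SE 0.14). Without CTR 4 and CTR 5 Crtc3 was at -0.14 (SE 0.11). The bound of 0.821-fold does not cover these settings. Within a genotype the SD of log2 CPM was larger in CTR than in KO for 7 of 10 members, as it was for 71.9% of tested genes with at least 1 CPM.

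Around these 10 genes, other parts of the CREB circuit were taken from lists that were drawn up with earlier results of these data known. Of 14 other CREB and ATF factors, 1 rose and 0 fell (edgeR; 3 and 0 at an unadjusted p under 0.05, 1 and 0 by DESeq2, 2 and 0 by voom), with a median log2 fold change of 0.15. Over all tested genes 3.94% were called by edgeR and 21.9% had an unadjusted p under 0.05. No overlap between genotypes was found for 7.8% of all tested genes and for 2 of the 14 factors. The factor that rose was Crebzf, a leucine zipper protein that binds host cell factor. It stood at 20.3, 22.0, 20.1, 19.7 and 19.9 CPM in CTR 1 to CTR 5, and at 27.1, 29.2, 24.0, 31.2 and 26.8 CPM in KO 1 to KO 5. All KO libraries lay above all CTR libraries, and the log2 fold change was 0.44 (SE 0.09, adjusted p = 0.0258 by edgeR). It was 0.41 without CTR 4 and CTR 5 (adjusted p = 0.0311), and the call was lost without CTR 3, KO 1, KO 2 or KO 4, where adjusted p was at most 0.0825, and with the replicate block (0.0802). Atf3, an early stress factor, ran from 332 to 523.7 CPM over CTR and from 471 to 585 over KO, a difference of 0.35 log2 units (SE 0.12, adjusted p = 0.121 by edgeR), and it passed by voom (0.0176), without CTR 4 (0.0423) and without CTR 4 and CTR 5 (0.0302).

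The acetyltransferase genes had 0 calls of 2 by edgeR, DESeq2 and voom, and 0 at an unadjusted p under 0.05. Ep300, which encodes p300, ran from 45.4 (CTR 4) to 100.4 CPM (CTR 2) over CTR and from 90.6 to 104 over KO, a difference of 0.35 log2 units (SE 0.18, adjusted p = 0.279 by edgeR). Crebbp, which encodes CBP, ran from 16.8 (CTR 4) to 32.1 CPM (CTR 2) over CTR and from 23.9 to 33.9 over KO (0.27 log2 units, SE 0.16, adjusted p = 0.365 by edgeR). CTR 4 was lowest for both genes, and the log2 fold changes of Ep300 and Crebbp were 0.21 and 0.11 after correction for length and GC, and 0.09 and 0.09 without CTR 4 and CTR 5.

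Among 23 genes that act on SIKs and CRTCs or are SIK substrates, namely the LKB1 complex, calcineurin, 14-3-3 proteins, related kinases and class IIa histone deacetylases, 1 rose and 0 fell (2 and 4 at an unadjusted p under 0.05, 2 and 1 by DESeq2, 3 and 5 by voom), with a median of -0.03. Over all tested genes 3.94% were called by edgeR and 21.9% had an unadjusted p under 0.05, and voom called 1026 higher and 893 lower. Hdac7, a class IIa deacetylase that shuttles with 14-3-3 binding, stood at 21.8, 15.3, 16.1, 14.5 and 11.9 CPM in CTR 1 to CTR 5. In KO 1 to KO 5 it stood at 28.3, 29.0, 20.1, 32.1 and 21.6 CPM. KO 3 and KO 5 lay below CTR 1 and all other KO libraries above every CTR library. On the log2 scale the difference (KO minus CTR) was 0.72 (SE 0.17, adjusted p = 0.0406 by edgeR). With 1 library left out at a time the call held for CTR 1, KO 3 and KO 5. It was lost for the other 7, with adjusted p at most 0.111, and also without CTR 4 and CTR 5 (0.57, adjusted p = 0.0807), with the replicate block (0.0644), after correction for length and GC (0.44, adjusted p = 0.138) and with no filter on low counts. Hdac7 was called in 9 of the 20 other settings. Strada, a pseudokinase that activates LKB1, ran from 18.9 to 24.0 CPM over CTR and from 16.1 to 19.0 over KO, a difference of -0.37 log2 units (SE 0.10, adjusted p = 0.0530 by edgeR), and it passed by DESeq2 (0.0136), voom (0.00627), without CTR 4 (0.0192) and without CTR 4 and CTR 5 (0.0134).

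Of 14 tested genes of kinases that phosphorylate CREB or, as Camkk2, act above such kinases, 0 rose and 0 fell (3 and 1 at an unadjusted p under 0.05 by edgeR, 2 and 0 by DESeq2, 3 and 0 by voom). The median was 0.12, and Camk4 was too low to test. Beside these stand the 21.9% of all tested genes at an unadjusted p under 0.05 and the 7.8% with no overlap, which 2 of the 14 kinase genes had. Camk2g, a calmodulin-dependent kinase, ran from 8.38 (CTR 4) to 16.3 CPM over CTR and from 17.2 to 22.6 over KO with no overlap (0.53 log2 units, SE 0.16, adjusted p = 0.0831 by edgeR), and it passed by DESeq2 (0.0281), voom (0.0342) and without CTR 4 (0.0498). Rps6ka5, which encodes MSK1, ran from 2.81 to 3.85 CPM over CTR and from 4.20 to 5.27 over KO with no overlap (0.44 log2 units, SE 0.14, adjusted p = 0.103 by edgeR), and it passed by voom (0.0349).

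CREB activity itself was not measured. Of 30 known CREB target genes, 24 were tested. Of these, 0 rose and 1 fell by edgeR, with 3 higher and 3 lower at an unadjusted p under 0.05. DESeq2 called 1 higher and 2 lower, and voom 5 and 3. In value 18 were higher and 6 lower, with a median of 0.23 beside -0.01 over all genes tested. This split leaves out Gem, Ppargc1a, Nr4a3, Fosb and Il10, which were too low to test and all had lower mean CPM in KO. Their differences ran from 0.383 (CTR) and 0.131 (KO) for Gem to 0.0937 and 0.0895 for Il10. The share of all tested genes was 3.94% called and 21.9% at an unadjusted p under 0.05. Without CTR 4 and CTR 5, 3 targets rose and 1 fell, where over all genes the calls went from 241 higher and 279 lower to 694 and 491. The one that fell was Thbs1, the gene of the matrix protein thrombospondin, with 145 to 420 CPM over CTR and 26.5 to 93.5 over KO (-2.36 log2 units, SE 0.36, adjusted p = 0.00848 by edgeR). Thbs1 was called in all 20 other settings. Tnfsf14 and Dusp10 were also lower at an unadjusted p under 0.05, but neither passed after adjustment. Tnfsf14, with 1 to 21 counts per library, differed by -1.55 log2 units (SE 0.48, adjusted p = 0.0893 by edgeR). Dusp10 differed by -0.54 (SE 0.20, adjusted p = 0.135). The 3 on the higher side were Per1, Junb (0.47) and Pde4b (0.52). Per1, a clock gene that cAMP induces, ran from 18.0 to 25.5 CPM over CTR and from 23.5 to 32.8 over KO (0.49 log2 units, SE 0.13, adjusted p = 0.0573 by edgeR), and it passed by DESeq2 (0.0130), voom (0.0363), with library-size scaling (0.0496) and without CTR 1 (0.0360). Its log2 fold change was 0.40 without CTR 4 and CTR 5 (adjusted p = 0.110) and 0.31 with the length and GC correction (adjusted p = 0.170).

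**Figure D4:**
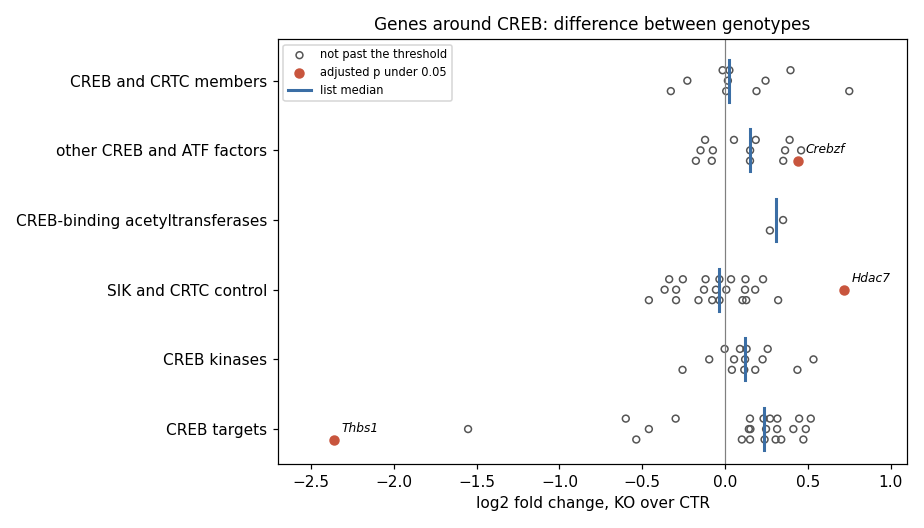
Log2 fold change (KO over CTR) of each tested gene in the 6 lists, with filled points for an adjusted p under 0.05 and a bar at each list's median. Crebzf (0.44), Hdac7 (0.72) and Thbs1 (-2.36) are the genes past the threshold, and the members have none.

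Several classic CREB targets were near the limit of detection in both genotypes. Areg had 0 counts in all 10 libraries, where a count of 0 allows up to 3 counts, or 0.154 to 0.203 CPM, for counting error only. Il10 and Fosb had 0 to 4 counts per library, Gem 0 to 9, Nr4a3 2 to 10 and Ppargc1a 0 to 23, and none of these 6 was tested. Nr4a1 stood at 1.20 ± 0.791 CPM (CTR) and 1.41 ± 0.344 CPM (KO), and Nr4a2 at 0.838 ± 0.337 and 0.937 ± 0.306 CPM (SD, n = 5 each). Fos, which responds to many stimuli, stood at 38.5 ± 10.8 and 42.7 ± 7.35 CPM (adjusted p = 0.668 by edgeR), and Dusp1 at 37.3 ± 9.81 and 43.8 ± 11.5 CPM (adjusted p = 0.540). Of the 15 tested genes of isolation and heat stress, 0 rose and 0 fell (4 and 1 at an unadjusted p under 0.05), with a median of 0.21. Over all tested genes 3.94% were called by edgeR, 21.9% had an unadjusted p under 0.05 and the median was -0.01. The stress and target lists share Fos, Fosb, Junb, Egr1 and Dusp1.

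The genes whose profile over the 10 libraries was most like that of a member were taken by the smallest root mean square difference in centred log2 CPM among 10128 genes. For Creb5 they were Pcnx (0.175), Tnrc18 (0.186) and Emc1 (0.196), with log2 fold changes (KO over CTR) of 0.48, 0.68 and 0.59. Likeness was taken over libraries of both genotypes, so these differences follow from the choice and are given with no test. For Sik1 they were Slc25a36 (0.0754), Ago4 (0.0795) and Mef2d (0.0899). For Crtc3 they were Ddhd2 (0.0647), Fbxo30 (0.0688) and Morc3 (0.0695), and for Crem Snrpert (0.139), Glipr2 (0.148) and Slc35a1 (0.149). The SD of log2 CPM over the 10 libraries, the scale for these differences, was 0.49 for Creb5, 0.24 for Sik1, 0.18 for Crtc3 and 0.35 for Crem.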

How the data were processed

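The deposited table gives raw counts per Ensembl gene and FPKM made by the authors for 10 libraries, and its 20 columns carry the library codes of the sample descriptions, by which they were mapped. The build GRCm39 and the tools edgeR, SAMtools 1.3.1, HISAT2 and CASAVA 1.8 are listed in the submitters' processing notes without roles. Which program counted, with which annotation and strand setting, is not given in the sources used here. Deposited FPKM were used for levels between genes and, with the counts, to recover the gene length (relative deviation at most 0.000186 at 50 counts or more). Symbols were matched to 53274 of 53465 identifiers.

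Counts were tested in R 4.3.3 with edgeR 4.0.16 (filterByExpr defaults, which kept 13203 genes with 99.87% of the counts, TMM, quasi-likelihood test on genotype, two-sided, Benjamini-Hochberg over all genes tested). The SE is the absolute log2 fold change over the root of the F statistic, and 95% intervals use the t distribution with the test's degrees of freedom. The fit was tested on simulated data. The members and lists were chosen with earlier results of these data known. Text names all 10 members, Gnas, up to 4 called genes of each list or its 2 lowest p-values, and 3 genes of similar profile for Crem, Creb5, Crtc3 and Sik1. Other genes of the target and marker lists were named after their values were seen. Other settings were DESeq2 1.42.0 size factors and Wald test, library size only, other filters, limma 3.58.1 voom with quality weights, a robust fit, a replicate block, libraries left out, and offsets for a smooth trend (mgcv 1.9.3) on gene length and GC content, the latter from GENCODE M21. CTR 4 and CTR 5 were left out because of their values in these same data, and the labels used here name no fault in them. RefSeq promoter windows are from GRCm38.p6, not the authors' build, and served for sequence only.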

Additional observations from a re-analysis of the deposited data

Results flagged for a closer look

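In groups of 5 libraries, a library is set apart when its gap to the next exceeds 0.71 of the group's range. Of 50 groups over 25 named genes 5 met this, and chance gives about 1 in 20. Creb3 stood at 46.8 CPM in KO 4, above 43.0 to 43.8 CPM in the other KO libraries. Crem stood at 3.28 CPM in KO 2, below 5.16 to 5.80 CPM in the others. Crebzf stood at 22.0 CPM in CTR 2, above 19.7 to 20.3 CPM. In CTR 4, Lyz2 stood at 33295 CPM, above 24310 to 25275 CPM, and S100a8 at 23.4 CPM, above 17.5 to 18.5 CPM.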

How the results depend on the processing

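The count of members called higher was 0 with all libraries and 1 (Creb5) with library size only, with a filter requiring 1 CPM in 5 libraries, by the DESeq2 Wald test and by limma voom, and 0 to 1 with single libraries left out; that of members called lower was 0 in every setting run. Over all genes the counts called higher and lower were 241 and 279, against 312 and 213 with library size only (59.4% higher against 46.3%), 122 and 139 with no filter, 591 and 673 by DESeq2, 1026 and 893 by voom, 694 and 491 without CTR 4 and CTR 5, and 32 to 484 and 30 to 384 with single libraries left out. With the replicate block they were 59 and 45, with 0 members called, and Crebzf and Hdac7 were no longer called. Residuals of equal numbers correlated between -0.13 and 0.06, and 0 of 5 CTR libraries correlated best with their own number, so the numbers were not taken as pairs. Members near 0 changed sign: Crtc1 was at -0.0155 without CTR 4 and CTR 5; Crtc2 at -0.0209 by voom, -0.0392 without CTR 4 and CTR 5 and -0.0399 with the length and GC correction; Crtc3 at 0.0177 with library size only; Sik3 at -0.0251 by voom and -0.14 with the correction. With single libraries left out Atf1 ran from -0.0431 to 0.0637, Crtc2 from -0.0318 to 0.0677, Crtc3 from -0.0816 to 0.0507 and Sik3 from -0.0609 to 0.115. The cause was not tested. Creb1, Creb3, Creb5, Crem and Sik1 kept their direction in all 20 settings. Depth limits Creb5 and Crem most.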
